A study of Mus musculus with 6 samples.

Results

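The insulin-like growth factor (IGF) family was followed here through 10 genes: the ligand genes Igf1 and Igf2, the receptor gene Igf1r, the adaptor gene Irs4 and the binding protein genes Igfbp2, Igfbp3, Igfbp4, Igfbp5, Igfbp6 and Igfbp7. They were taken by gene symbol from 22180 genes that could be named, each from a probe set that lists 1 gene, and where a gene had several probe sets the one with the highest mean over the 6 arrays was used. All 10 were measured, and all 10 had means above log2 6.78, the 40th percentile of gene means that served as a mark of dim genes, in both groups. RNA came from E14.5 embryonic fibroblasts of 129SV mice, isolated from the dorsal body wall of embryos that carried one Ebf2(GFP) allele over a wild-type one, so both groups share the reporter genotype. Cells were sorted as PDGFRα+ and divided by the reporter into Ebf2(GFP)+ (n = 3 arrays) and Ebf2(GFP)- (n = 3 arrays). The series title presents Ebf2 as a marker of precursors of brown and beige fat cells, and the comparison asks how reporter-positive cells differ from reporter-negative cells within the PDGFRα+ gate. Whether the replicates are separate litters, or embryos were pooled, is not in the labels, and the p-values therefore cover the spread among these arrays, part of which may be technical.

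IGF-I and IGF-II are secreted peptides that activate the tyrosine kinase receptor encoded by Igf1r, which passes the signal on through insulin receptor substrates to PI3 kinase and Akt. In the embryo they act mainly as local growth factors made by mesenchyme, and IGF signalling is known to be needed for the differentiation of fat cell precursors in culture. Binding proteins hold the ligands in the matrix and body fluids with high affinity, and proteases that cut the binding proteins set the ligands free.

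Of the 10 genes, 3 were higher in Ebf2(GFP)+ cells (Irs4, Igf1 and Igfbp3), 1 was lower (Igfbp2) and 6 did not pass limma's test at an adjusted p of 0.05 over all genes. Irs4 was 2.36-fold higher, Igf1 1.94-fold higher and Igfbp3 1.40-fold higher, and Igfbp2 was 1.92-fold lower. Over all 22180 genes 6.49% passed, 2.65% as higher and 3.84% as lower. That background includes dim genes, while none of the 10 was dim by its group means. Irs4 came closest to the mark, at a mean log2 level of 6.82 in Ebf2(GFP)- cells. In a fit without dim genes, 1523 of 13308 genes passed, 669 as higher and 854 as lower. The counts of the 10 stayed at 3 higher and 1 lower. The 10 genes were chosen with earlier results of these data known, so their counts beside these shares are not a test of the family. After each array was centred on the median of the named genes, a setting chosen after seeing the data, the higher genes made up 53.7% of all calls in place of 40.9%. The median log2 change of the 10 genes was 0.19, beside 0.02 over all genes, and 9 of the 10 changes were above 0. How many of all genes changed by more than 0 was not counted, so these signs show no rise of the family. The 3 arrays of one group did not overlap those of the other for 6 of the 10 genes, 5 of them with the Ebf2(GFP)+ arrays on the higher side and 1 on the lower, and the background for such separation was 22.0% of all genes, 12.3% with the Ebf2(GFP)+ arrays higher and 9.78% with them lower. In these bulk samples, fewer cells that express a gene and less RNA per cell cannot be told apart.

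The promoters of the 4 genes that passed are shown because these genes differed between cells sorted on an Ebf transcription factor reporter. The sequences are RefSeq windows on GRCm38.p6 from 250 bases before to 50 bases after a transcription start, given 5′ to 3′ on the gene's own strand, and all 10 genes had at least 1 window. They lie at chr10:87860861-87861160 (plus strand, Igf1), chrX:141725168-141725467 (minus strand, Irs4), chr1:72824230-72824529 (plus strand, the first of 2 Igfbp2 windows) and chr11:7213874-7214173 (minus strand, Igfbp3). Capitals mark the letters CCCNNGGG, the core of the motif that Ebf factors bind, and GGGCGG, the GC box of Sp1, each searched on both strands (GGGCGG appears as CCGCCC on the other).
Igf1: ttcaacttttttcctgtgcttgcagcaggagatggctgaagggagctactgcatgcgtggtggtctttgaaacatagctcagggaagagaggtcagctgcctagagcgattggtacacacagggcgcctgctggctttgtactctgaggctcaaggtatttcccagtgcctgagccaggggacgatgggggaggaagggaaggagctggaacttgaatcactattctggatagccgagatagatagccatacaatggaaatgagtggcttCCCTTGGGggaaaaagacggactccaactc
Irs4: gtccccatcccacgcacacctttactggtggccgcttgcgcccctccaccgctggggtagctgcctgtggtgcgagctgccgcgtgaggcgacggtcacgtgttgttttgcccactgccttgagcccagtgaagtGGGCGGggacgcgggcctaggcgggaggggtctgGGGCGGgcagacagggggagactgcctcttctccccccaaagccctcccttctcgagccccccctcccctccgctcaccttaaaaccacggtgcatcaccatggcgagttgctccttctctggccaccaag
Igfbp2: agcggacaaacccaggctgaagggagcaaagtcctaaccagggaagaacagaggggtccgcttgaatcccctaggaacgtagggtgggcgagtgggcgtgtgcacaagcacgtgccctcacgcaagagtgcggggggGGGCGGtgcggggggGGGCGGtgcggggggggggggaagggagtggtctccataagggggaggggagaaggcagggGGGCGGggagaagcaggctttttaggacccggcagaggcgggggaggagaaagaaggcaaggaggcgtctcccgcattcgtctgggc
Igfbp3: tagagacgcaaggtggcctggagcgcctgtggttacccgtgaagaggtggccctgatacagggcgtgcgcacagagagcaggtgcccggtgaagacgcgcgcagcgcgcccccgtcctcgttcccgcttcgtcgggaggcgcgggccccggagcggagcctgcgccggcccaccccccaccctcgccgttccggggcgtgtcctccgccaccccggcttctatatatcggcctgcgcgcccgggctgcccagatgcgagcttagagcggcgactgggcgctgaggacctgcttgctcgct
The Igf1 window held 1 match to CCCNNGGG, which begins 20 bases past the start site, and the windows of Irs4, Igfbp2 and Igfbp3 held none. Such a match was present in 13.7% of all 32851 windows in the RefSeq table and in 2 of the 14 windows of the 10 genes, the other being that of Igfbp7. The GC box was found 2 times in the Irs4 window, 3 times in the printed Igfbp2 window and not in those of Igf1 and Igfbp3, beside 35.7% of all windows. The letters TATAAA, searched on both strands, were in none of the 4 printed windows, but in those of Igfbp4 and Igfbp6 and in 13.6% of all windows. These letters are a description of the windows and show nothing about binding.

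Among the ligands, Igf1 was higher in Ebf2(GFP)+ cells and Igf2 did not pass. Igf1 encodes the ligand that mediates much of the action of growth hormone and is also made locally by mesenchymal cells. Its log2 level was 11.24, 10.73 and 11.45 in Ebf2(GFP)- replicates 1, 2 and 3 and 12.17, 12.01 and 12.11 in Ebf2(GFP)+ replicates 1, 2 and 3. All Ebf2(GFP)+ arrays lay above all Ebf2(GFP)- arrays, and the Ebf2(GFP)- arrays were the more scattered, with replicate 2 the lowest. The group means were 12.09 ± 0.079 (SD, n = 3) and 11.14 ± 0.374 (SD, n = 3), a log2 change of 0.95 ± 0.18 SE (95% interval 0.53 to 1.38, limma adjusted p = 0.0267). The call did not survive the loss of some arrays: limma's adjusted p was 0.0705 without Ebf2(GFP)- replicate 1, and 0.114, 0.0882 and 0.0996 without Ebf2(GFP)+ replicate 1, 2 or 3. The log2 change itself stayed between 0.75 and 1.11 over the 6 arrays left out. Igf1 is also known as a product of tissue macrophages, and 14 of 14 measured macrophage markers were lower in Ebf2(GFP)+ cells. The mean log2 level of that marker list was 9.75, 9.21 and 10.20 in Ebf2(GFP)- replicates 1, 2 and 3. In Ebf2(GFP)+ replicates 1, 2 and 3 it was 6.99, 7.68 and 7.99. Between the groups the list was thus lower where Igf1 was higher. Among the Ebf2(GFP)- replicates it ranked as Igf1 did, and among the Ebf2(GFP)+ replicates it did not. The part of macrophages in the Igf1 result was not tested. Of these markers 4 lay below the mark of dim genes in Ebf2(GFP)+ cells and 0 in Ebf2(GFP)- cells.

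Igf2, the imprinted gene of the main fetal growth ligand, was at 13.02, 13.10 and 13.09 in the Ebf2(GFP)- replicates and at 13.11, 13.12 and 13.11 in the Ebf2(GFP)+ replicates on the log2 scale. The groups did not overlap, but by a narrow margin. The log2 change was 0.04 ± 0.05 SE (limma adjusted p = 0.753), and its 95% interval ran from −0.08 to 0.16, that is from 0.947-fold to 1.12-fold. The highest value on any array was 14.32, and whether the bright Igf2 probe set still responded in proportion to RNA was not tested.

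**Figure D1:**
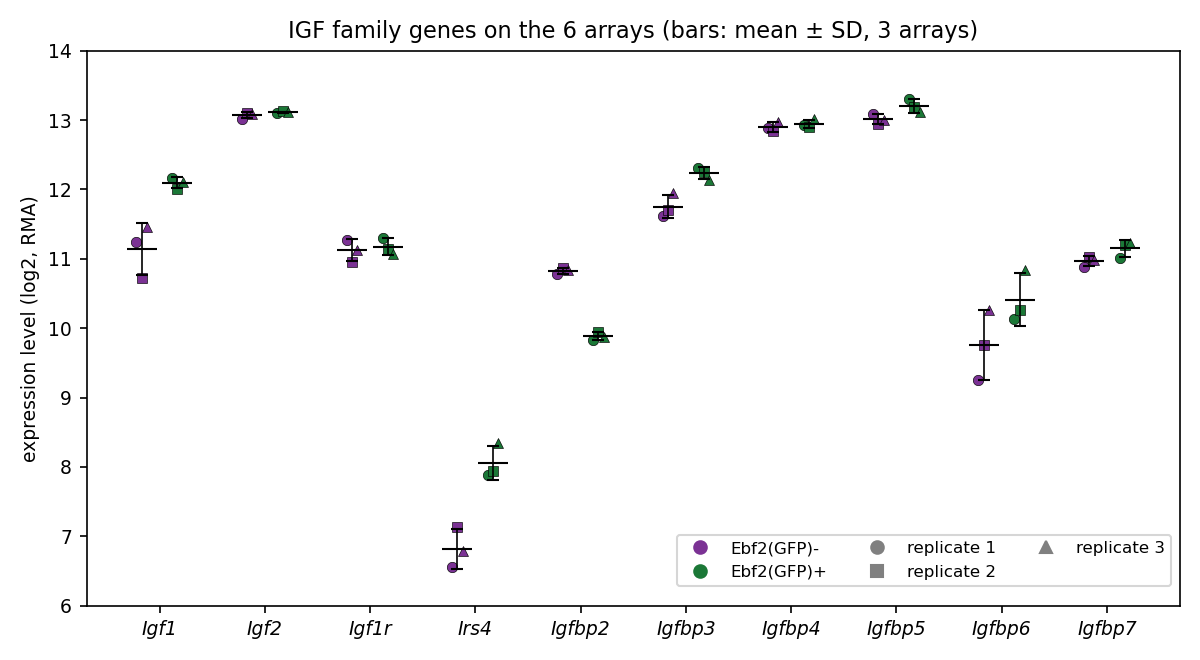
Log2 expression level of the 10 IGF family genes on each array, purple for Ebf2(GFP)- and green for Ebf2(GFP)+, with symbols for the replicate number and bars for the mean ± SD of 3 arrays. Igf1, Irs4 and Igfbp3 sit higher and Igfbp2 lower on all 3 Ebf2(GFP)+ arrays, while the groups overlap for Igf1r, Igfbp4, Igfbp6 and Igfbp7; the heights of different genes cannot be compared, since each comes from its own probe set.

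The receptor gene Igf1r did not pass, and the adaptor gene Irs4 had the largest increase of the 10. Igf1r was at 11.28, 10.96 and 11.13 in the Ebf2(GFP)- replicates and at 11.31, 11.14 and 11.07 in the Ebf2(GFP)+ replicates, and the groups overlapped. Its log2 change was 0.05 ± 0.10 SE (95% interval −0.19 to 0.29, limma adjusted p = 0.861), so differences of up to 1.22-fold upwards lie within the interval. Irs4 encodes an insulin receptor substrate, a docking protein that links the IGF-I and insulin receptors to PI3 kinase, and lies on the X chromosome. Its log2 level was 6.55, 7.13 and 6.78 in the Ebf2(GFP)- replicates and 7.89, 7.94 and 8.34 in the Ebf2(GFP)+ replicates. The groups were well apart, with a gap between Ebf2(GFP)- replicate 2 and Ebf2(GFP)+ replicate 1, the nearest arrays. The means were 8.06 ± 0.248 and 6.82 ± 0.290 (SD, n = 3 each), a log2 change of 1.24 ± 0.18 SE (95% interval 0.82 to 1.66, limma adjusted p = 0.0104). It passed without any 1 of the 6 arrays, with adjusted p-values from 0.0138 to 0.0446.

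Irs4 was the only one of the 10 genes with more than 1 probe set, and its probe sets disagreed. The second was dimmer, at a mean log2 level of 5.59 in Ebf2(GFP)+ and 5.64 in Ebf2(GFP)- cells, below the mark of dim genes, and differed by −0.05 ± 0.06 SE (limma adjusted p = 0.794 in a fit of all probe sets). When both probe sets were averaged, the log2 change of Irs4 was 0.59 ± 0.11 SE and still passed (limma adjusted p = 0.0273). The mean of the brighter probe set in Ebf2(GFP)- cells lay close to the mark of dim genes, and the files hold no detection calls. For that reason 2.36-fold may understate the difference. The choice of the brighter probe set may also make it overstate the difference, and neither was tested.

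**Figure D2:**
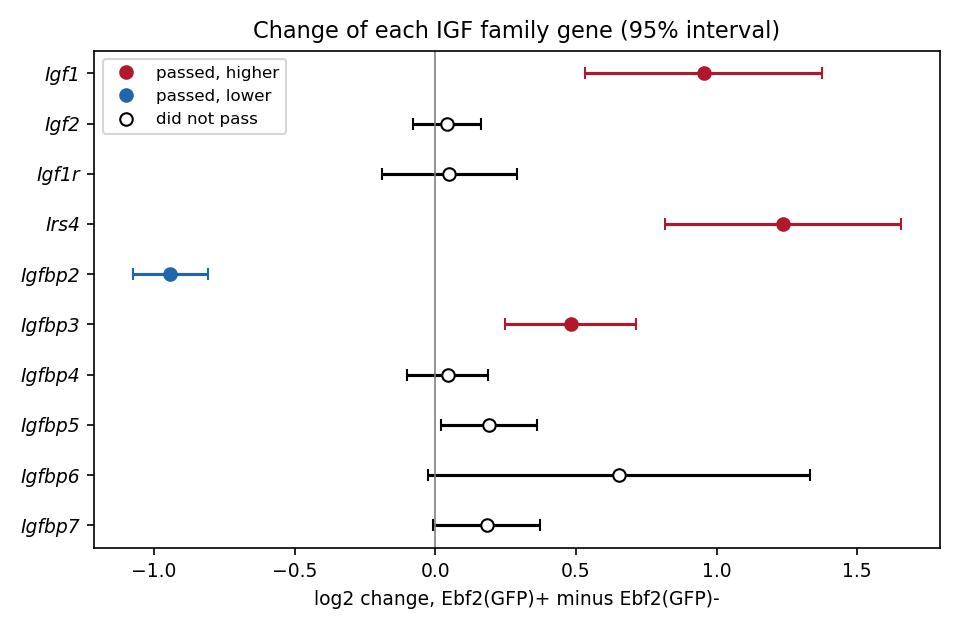
Log2 change of each IGF family gene, Ebf2(GFP)+ minus Ebf2(GFP)-, with limma's 95% interval; red and blue mark genes that passed as higher or lower and open symbols those that did not pass. The interval of Igfbp2 (−1.08 to −0.81) is short and below 0, and that of Igfbp6 (−0.03 to 1.33) is the widest of the 10.

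Of the binding proteins, Igfbp2 fell and Igfbp3 rose, and the other 4 did not pass. Igfbp2 encodes a binding protein that is abundant in the embryo and can also attach to integrins. It was at 10.78, 10.87 and 10.83 in the Ebf2(GFP)- replicates and at 9.83, 9.94 and 9.88 in the Ebf2(GFP)+ replicates. The arrays of each group lay close together and far from the other group. The means were 9.89 ± 0.055 and 10.83 ± 0.046 (SD, n = 3 each), a log2 change of −0.94 ± 0.06 SE (95% interval −1.08 to −0.81, limma adjusted p = 0.000504). The adjusted p stayed at or below 0.00561 in every setting in which 1 array was left out. Cartilage markers were also lower on the Ebf2(GFP)+ arrays: 12 of 12 measured fell, and the mean log2 level of that list was 9.04 to 9.34 in Ebf2(GFP)+ and 10.62 to 10.78 in Ebf2(GFP)- cells, with no marker below the mark of dim genes. The parts of the cartilage and macrophage markers in the fall of Igfbp2 were not tested.

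Igfbp3 encodes the main carrier of IGFs in serum, which is also secreted by fibroblasts. Its log2 level was 11.61, 11.70 and 11.94 in the Ebf2(GFP)- replicates and 12.32, 12.25 and 12.14 in the Ebf2(GFP)+ replicates. The groups did not overlap, and Ebf2(GFP)- replicate 3 came nearest to the other group. The means were 12.23 ± 0.089 and 11.75 ± 0.171 (SD, n = 3 each), a log2 change of 0.48 ± 0.10 SE (95% interval 0.25 to 0.71, limma adjusted p = 0.0361). The call was narrow. It was lost with the replicate number as a block (adjusted p = 0.0533), without Ebf2(GFP)- replicate 1 or 2 (0.0900 and 0.123) and without Ebf2(GFP)+ replicate 1, 2 or 3 (0.141, 0.131 and 0.0799), and it held without Ebf2(GFP)- replicate 3 (0.0182).

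Igfbp6, whose product prefers IGF-II over IGF-I, had the largest SD within groups of the 10 genes. It was at 9.26, 9.76 and 10.26 in the Ebf2(GFP)- replicates and at 10.13, 10.26 and 10.84 in the Ebf2(GFP)+ replicates. The groups overlapped, but within each replicate number the Ebf2(GFP)+ array was the higher, by 0.87, 0.50 and 0.59 on the log2 scale. The log2 change of 0.65 ± 0.28 SE (95% interval −0.03 to 1.33) did not pass (limma adjusted p = 0.305), whereas with the replicate number as a block it did (0.65 ± 0.08 SE, limma adjusted p = 0.0128). That call rests on a pairing inferred from the arrays, since the labels do not say what a replicate number shares. With the block, Igf1, Irs4 and Igfbp6 passed as higher and Igfbp2 as lower, 3 and 1 of the 10 genes, beside 4.55% and 5.49% of all genes.

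Igfbp5, which encodes a binding protein that attaches to the extracellular matrix, was at 13.09, 12.94 and 13.01 in the Ebf2(GFP)- replicates and at 13.31, 13.19 and 13.11 in the Ebf2(GFP)+ replicates. The Ebf2(GFP)+ arrays were all higher, but the log2 change, 0.19 ± 0.07 SE, missed the threshold (95% interval 0.02 to 0.36, limma adjusted p = 0.221). Igfbp7, the product of which binds IGFs only weakly and is found in vessel walls, had a log2 change of 0.18 ± 0.08 SE (95% interval −0.01 to 0.37, limma adjusted p = 0.302), with levels of 10.88 to 11.03 in Ebf2(GFP)- and 11.01 to 11.23 in Ebf2(GFP)+ cells. Igfbp4, an inhibitor of IGF action until it is cut, was at 12.84 to 12.98 and 12.90 to 13.01 in these groups, and the groups overlapped. Its log2 change was 0.04 ± 0.06 SE (limma adjusted p = 0.791), and its 95% interval, −0.10 to 0.19, leaves room for up to 1.14-fold upwards.

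**Figure D3:**
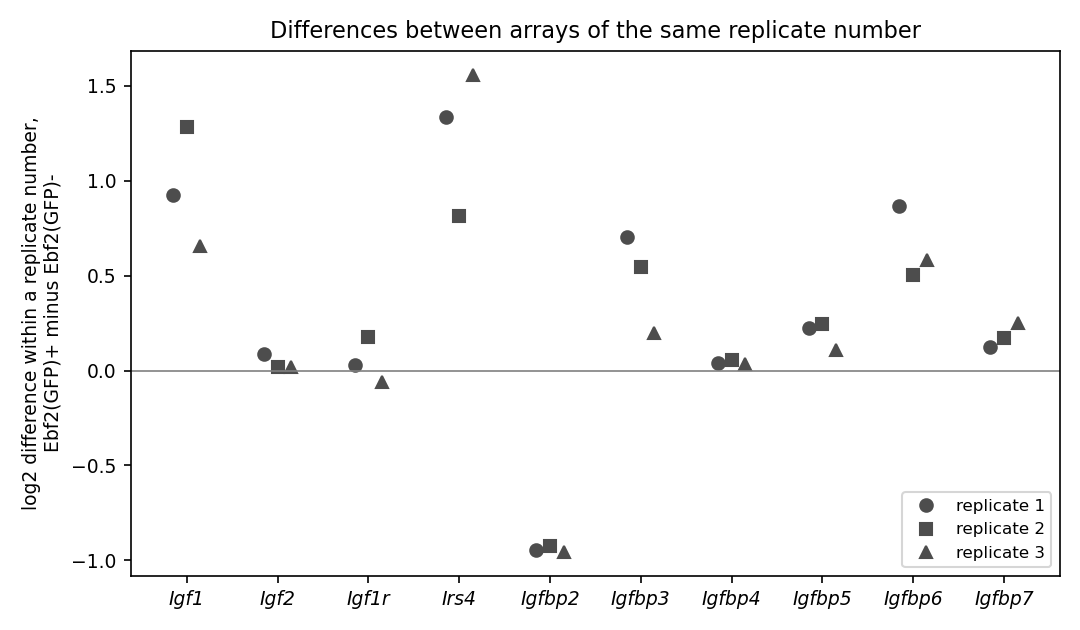
Log2 difference between the Ebf2(GFP)+ and the Ebf2(GFP)- array of the same replicate number, one symbol per number, for each of the 10 genes. Igfbp2 gave −0.94, −0.93 and −0.96, the differences of Igf1 spread from 0.65 to 1.28 and those of Irs4 from 0.81 to 1.56, and Igf1r is the only gene with differences on both sides of 0.

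The differences within a replicate number ranged widely in their scatter. They had an SD of 0.015 for Igfbp2 and 0.010 for Igfbp4, beside 0.316 for Igf1 and 0.383 for Irs4. In the same arrays the difference was above 0 in 3 of 3 replicate numbers for 8 genes and in 2 of 3 for Igf1r, and below 0 in 3 of 3 for Igfbp2. Among the 8 genes, the differences were small for Igf2 (0.02 to 0.09) and Igfbp4 (0.04 to 0.05). The share of all genes with such differences was not counted, so the count shows no rise of the family.

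The proteases that cut the binding proteins showed the largest change in the surrounding pathway. Of 8 measured genes of other binding proteins, their proteases and protease inhibitors, 1 was higher and 2 were lower. Of all genes, 2.65% were higher and 3.84% lower. Pappa2, the protease of Igfbp3 and Igfbp5 proteins, was at 10.53, 10.82 and 10.85 in the Ebf2(GFP)- replicates and at 8.10, 8.24 and 8.57 in the Ebf2(GFP)+ replicates. The groups were far apart, a 5.39-fold fall (log2 change −2.43 ± 0.14 SE, limma adjusted p = 0.000475) that passed without any 1 array. Pappa, whose product cuts the Igfbp4 protein, was at 9.22, 8.89 and 8.95 in the Ebf2(GFP)- replicates and at 9.95, 9.49 and 9.69 in the Ebf2(GFP)+ replicates. All Ebf2(GFP)+ arrays were higher, and the rise was 1.61-fold (0.69 ± 0.14 SE, limma adjusted p = 0.0348). The call of Pappa ended without Ebf2(GFP)- replicate 2 or 3 (adjusted p = 0.123 and 0.111) and without Ebf2(GFP)+ replicate 1 or 3 (0.0964 and 0.113). Htra1, a secreted serine protease that also cuts binding proteins, fell 1.84-fold (−0.88 ± 0.15 SE, limma adjusted p = 0.0190), with adjusted p-values of 0.0757 and 0.0680 without Ebf2(GFP)- replicate 2 or 3 and 0.0733 and 0.0814 without Ebf2(GFP)+ replicate 1 or 3. The cartilage and macrophage markers were lower in the same arrays, and their part in the falls of Pappa2 and Htra1 was not tested. Stc1 and Stc2, whose products inhibit the Pappa and Pappa2 proteases, had log2 changes of 0.27 ± 0.13 SE and −0.30 ± 0.13 SE, of which neither passed (limma adjusted p = 0.357 and 0.309); with the replicate block Stc1 passed as higher (limma adjusted p = 0.0447). Igfbp1 lay below the mark of dim genes in both groups, at mean log2 levels of 5.55 and 5.61.

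Of 5 measured other ligands and receptors, 1 was higher and 0 lower by limma's test (0 lower at an unadjusted p under 0.05). Of all genes, 2.65% were higher and 3.84% lower by limma's test, and 9.19% and 8.51% at an unadjusted p under 0.05. The higher gene was Igf2r, which encodes the mannose 6-phosphate receptor that removes IGF-II from the cell surface, at 12.75 ± 0.012 in Ebf2(GFP)+ and 12.44 ± 0.063 in Ebf2(GFP)- cells (SD, n = 3 each). It rose 1.24-fold (log2 change 0.31 ± 0.05 SE, limma adjusted p = 0.0209), and its adjusted p rose above 0.05 whenever 1 array other than Ebf2(GFP)- replicate 3 was left out, to at most 0.0862. Insr, the insulin receptor gene, had a log2 change of −0.01 ± 0.06 SE (limma adjusted p = 0.940).

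Of 8 measured other adaptors of the receptor, none passed limma's test, and 4 were higher and 0 lower at an unadjusted p under 0.05. Of all genes, 9.19% were higher and 8.51% lower at that unadjusted p. Irs1 and Irs2, the widely expressed relatives of Irs4, had log2 changes of 0.17 ± 0.06 SE and 0.21 ± 0.17 SE (limma adjusted p = 0.209 and 0.620). Socs2, a feedback inhibitor of growth hormone signalling, came closest, with 0.61 ± 0.14 SE (limma adjusted p = 0.0519, or 0.0198 with the replicate block). Of 11 measured PI3 kinase, Akt and FoxO genes, 1 fell and none rose (1 higher and 2 lower at an unadjusted p under 0.05). With the replicate block Pik3r2, a regulatory subunit gene of PI3 kinase, passed as higher (log2 change 0.29, limma adjusted p = 0.0378, or 0.244 without the block). The gene that fell was Pik3cb, a catalytic subunit of PI3 kinase, which was at 8.58, 8.57 and 8.35 in the Ebf2(GFP)- replicates and at 7.86, 7.70 and 7.69 in the Ebf2(GFP)+ replicates. The fall was 1.68-fold (log2 change −0.75 ± 0.09 SE, limma adjusted p = 0.00466) and passed without any 1 array. Over these pathway lists together, 2 of 33 measured genes were higher and 3 lower, beside 2.65% and 3.84% of all genes. With the replicate block 5 were higher and 3 lower, beside 4.55% and 5.49% of all genes.

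**Figure D4:**
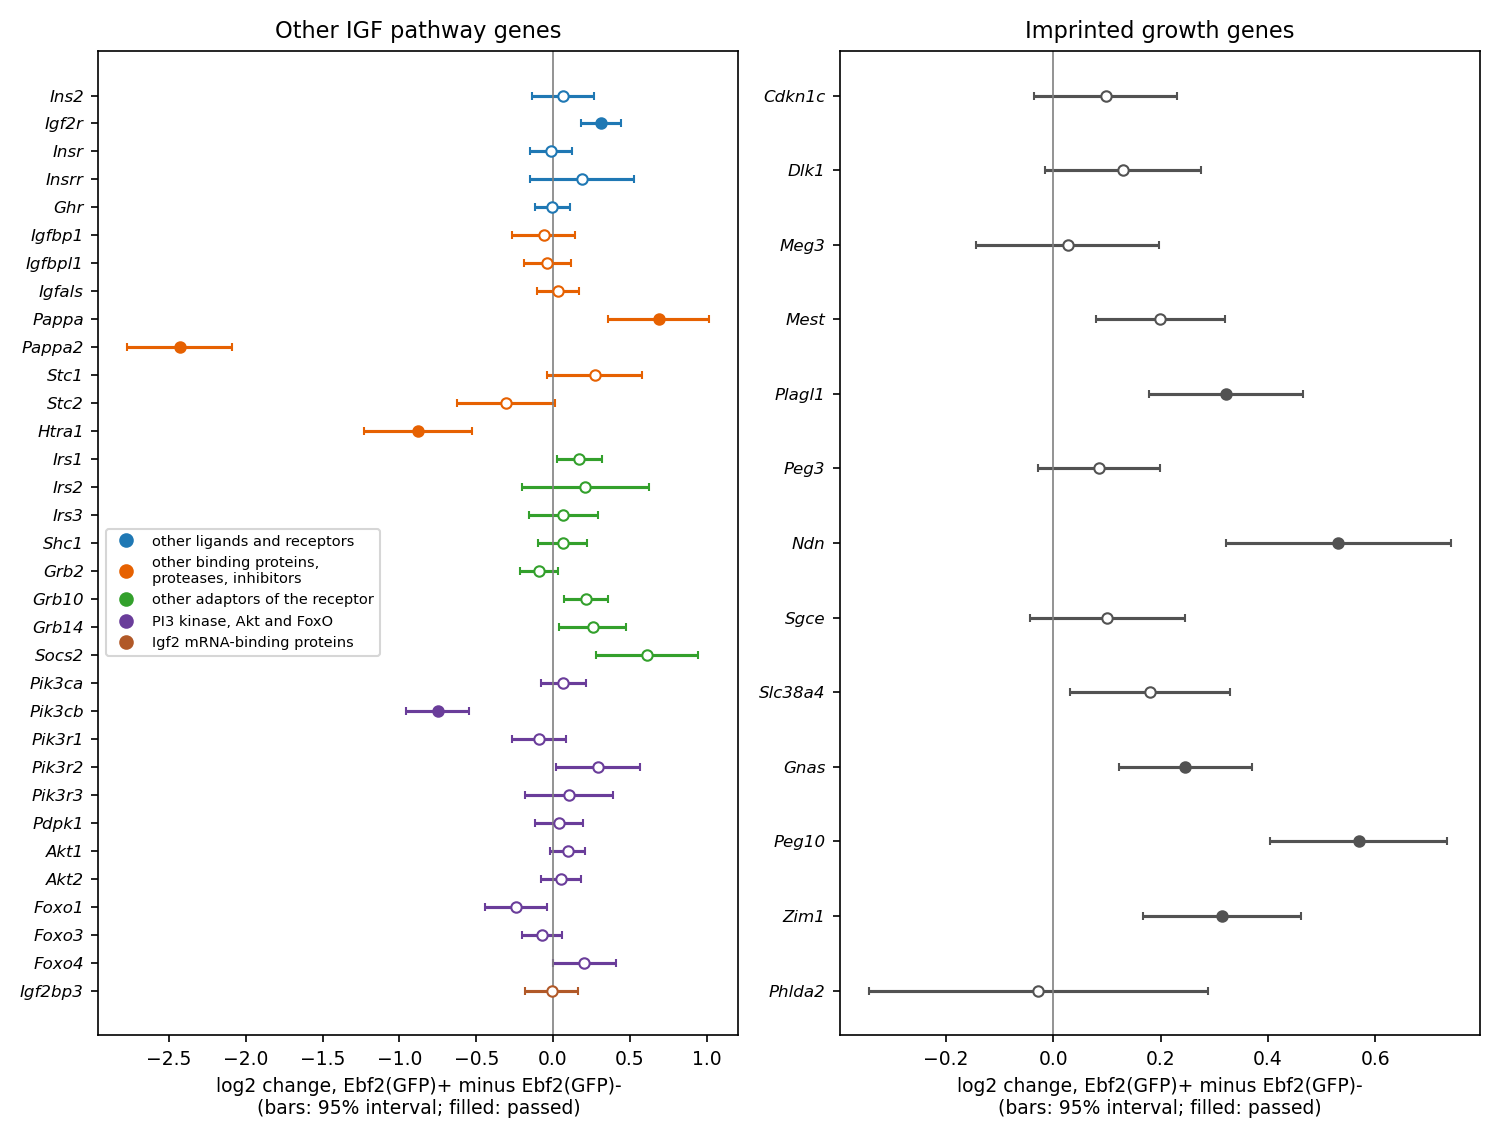
Log2 change with limma's 95% interval for 33 other genes of the IGF pathway, coloured by list (left), and for 13 imprinted growth genes (right); filled symbols passed at an adjusted p of 0.05. Pappa2 at −2.43 is the largest change, and 12 of the 13 imprinted genes lie above 0. The share of all genes above 0 was not counted.

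Igf2 belongs to a group of imprinted genes, expressed from 1 parental allele, many of which regulate fetal growth. Of 13 other measured imprinted growth genes, 5 were higher and 0 lower by limma's test, beside 2.65% and 3.84% of all genes. At an unadjusted p under 0.05, 7 were higher and 0 lower, beside 9.19% and 8.51%. None of the 13 had a group mean below the mark of dim genes. In the fit without dim genes, 669 of 13308 genes were higher and 854 lower, and 5 of the 13 passed. The list was chosen with earlier results of these data known. The median log2 change of the 13 was 0.18 where that of all genes was 0.02. Peg10, a gene derived from a retrotransposon, was at 11.73, 11.56 and 11.78 in the Ebf2(GFP)- replicates and at 12.28, 12.23 and 12.27 in the Ebf2(GFP)+ replicates. The groups did not overlap, and the rise of 1.48-fold (log2 change 0.57 ± 0.07 SE, limma adjusted p = 0.00558) passed without any 1 array. Ndn, which encodes necdin, rose 1.45-fold (0.53 ± 0.09 SE, limma adjusted p = 0.0176), Plagl1, a zinc finger gene known to act on Igf2 in the mouse, 1.25-fold (0.32 ± 0.06 SE, 0.0277), Zim1 1.24-fold (0.31 ± 0.06 SE, 0.0324) and Gnas 1.19-fold (0.25 ± 0.05 SE, 0.0418). With 1 array left out these 4 calls were lost in most cases: Gnas passed in 0 of 6, Plagl1 and Zim1 in 1 of 6 (without Ebf2(GFP)- replicate 3) and Ndn in 2 of 6 (without Ebf2(GFP)- replicate 3 or Ebf2(GFP)+ replicate 2), and their highest adjusted p was 0.142. With the replicate block 4 of the 13 were higher, and Gnas did not pass (limma adjusted p = 0.0513). On the same arrays 14 of 14 macrophage markers and 12 of 12 cartilage markers were lower (median log2 change −2.08 and −1.70), and their part in the values of the imprinted genes was not tested. Mest, Dlk1 and Cdkn1c differed by 0.20, 0.13 and 0.10 on the log2 scale, below what passed (limma adjusted p = 0.0753, 0.341 and 0.451). H19, the neighbour of Igf2 in its imprinted domain, was not analysed here.

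The genes with the profile most like that of Irs4 and of Igfbp2 were found by the distance between log2 values, each gene centred on its own mean, over the 6 arrays. For Irs4 they were Qprt (distance 0.417), Tm4sf1 (0.482) and Rbm46 (0.497). For Igfbp2 they were nearer: Npas3 (0.116), Cnn1 (0.136) and Prr16 (0.158). Their log2 changes were 1.34, 0.98 and 1.03 for the first set and −0.93, −0.91 and −1.01 for the second, as follows from the choice.

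**Figure D5:**
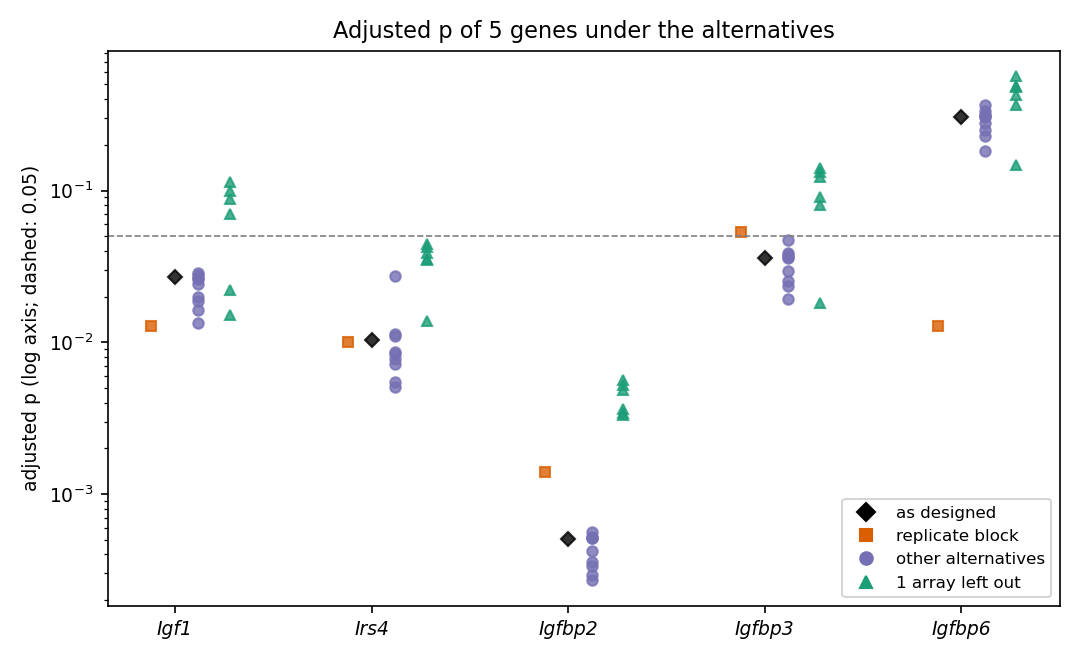
Limma's adjusted p on a log axis for Igf1, Irs4, Igfbp2, Igfbp3 and Igfbp6 in the designed fit, with the replicate block, under the other alternatives and with 1 array left out; the dashed line is 0.05. Igfbp2 and Irs4 lie below the line throughout, Igf1 and Igfbp3 cross it when most single arrays are left out, and Igfbp6 is below it only with the block.

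The sort was checked, and cell type markers were read, on the same arrays. Ebf2 was higher in the Ebf2(GFP)+ cells (log2 change 3.35 ± 0.24 SE, limma adjusted p = 0.000916), and Pdgfra, the gene of the sort gate, was high in both groups. All 9 fibroblast markers lay above the mark of dim genes. So did all measured cartilage, endothelial and mural cell markers in both groups, so the mark does not single out fibroblasts. Of the 9 fibroblast markers, Lum, Twist1 and Twist2 were lower in Ebf2(GFP)+ cells. Array correlations were 0.9951 to 0.9969 within and 0.9845 to 0.9911 between groups. Endothelial markers were at a mean log2 level of 9.05 to 9.28 in Ebf2(GFP)+ and 9.12 to 9.66 in Ebf2(GFP)- cells. Of these 10, 1 was higher and 2 lower (1 and 3 with the replicate block). The part of endothelial markers in the values of Igfbp3 and Igfbp7 was not tested. Mural cell markers were at 10.07 to 10.12 and 10.18 to 10.32, with 1 of 9 higher and 3 lower (2 and 2 with the replicate block). Schwann cell and neural crest markers were at 7.58 to 7.81 and 8.15 to 8.49, with 0 of 6 higher and 2 lower, Sox10 and Fabp7. At limma's unadjusted p under 0.05, 5 of these markers were lower, beside 8.51% of all genes. Of skeletal muscle markers 1 of 10 was higher and 0 lower. Of epithelial markers 0 of 7 were higher and 1 lower (1 and 1 with the replicate block). Of 4 erythroid markers none passed limma's test (0 at an unadjusted p under 0.05). The parts of these lists in the members' values were not tested.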

How the data were processed

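RNA of 6 sorted samples was hybridised to Affymetrix arrays. The authors deposited log2 values for each probe set; RMA and limma are the tools listed in the submitters' processing notes, without versions or filters, and the log2 scale was read from the range (3.41 to 14.32, array medians 6.657 to 6.712). Since RMA equalises the distributions of the arrays, it hides any change common to most genes. Of 41345 probe sets, 23521 list 1 gene in the platform table, 1814 list several and 16010 were not named; the first kind gave 22180 genes. The number of arrays limits the precision.

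Changes were fitted with lmFit and eBayes (limma 3.58.1, R 4.3.3) on all 6 arrays and adjusted after Benjamini and Hochberg over all genes; errors beside changes are moderated standard errors, and 95% intervals are limma's, not adjusted. The fit without a block was tested on simulated data with independent noise on each array. That simulation held no deviation shared by same-numbered arrays. The members and lists were chosen with earlier results of these data known. Named genes are the 10 members, passing genes of each pathway list (up to 6, by smallest p), 7 fixed pathway genes, and the 3 nearest profiles of the member that rose most and of the one that fell most; other genes were chosen after their values were seen. Some genes of the pathway lists were not analysed here.

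The labels number replicates alike in both groups. Deviations from the group means correlated at 0.314 to 0.519 between same-numbered arrays and at −0.384 to −0.024 between others. All same-numbered values were above 0 and all others below it, which was read as pairing, and the labels give no other evidence. Since the deviations of a group sum to 0 for each gene, positive same-numbered values push the others below 0. The contrast between the 2 ranges is therefore partly built in. The values reported come from the fit without a block; the blocked fit is given beside results whose call it changes. The block, other normalizations, variance models, probe set rules, thresholds and leaving out each array were tried as alternatives.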

Additional observations from a re-analysis of the deposited data

How the results depend on the processing

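Over the 18 alternatives, 161 of 180 changes of single IGF family genes kept their direction and their side of the threshold. Calls were lost in 16, for Igfbp3 (8), Igf1 (6), Irs4 (1) and Igfbp2 (1), gained in 1 (Igfbp6 with the replicate block), and reversed in 2. Both reversals were those of Igf1r, which did not pass in any setting; its log2 change was −0.032 without Ebf2(GFP)- replicate 2 and −0.018 without Ebf2(GFP)+ replicate 1 (−0.032 to 0.127 over the arrays left out). With the replicate block, 2228 genes passed in place of 1439, and 8 other IGF pathway genes in place of 5, with Stc1, Socs2 and Pik3r2 added; Gnas was lost (adjusted p = 0.0513), and Igfbp3 and Igfbp6 exchanged places. The block changed no other call among the genes named here. With 1 array left out, the count of all genes was 629 to 1067 (629, 667 and 762 without Ebf2(GFP)+ replicate 1, 2 or 3), that of IGF family genes higher 1 to 3 and lower 1 to 1, that of other pathway genes 2 to 5 and that of imprinted growth genes 1 to 4; fewer samples enter these fits. At an adjusted p under 0.01 there were 539 genes, with 0 IGF family genes higher, 2 other pathway genes and 1 imprinted gene. Requiring at least a 2-fold change left 386 genes, 1 IGF family gene higher (Irs4), 0 lower, 1 other pathway gene (Pappa2) and 0 imprinted genes. Centring on the median of the named genes, chosen after seeing the data, gave 868 higher and 749 lower genes in place of 588 and 851, and the same counts of IGF family genes (3 and 1). The files hold no signal over background, so how far dim values such as those of Irs4 are compressed cannot be measured here.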

Other observations

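Several of the genes are neighbours on the chromosome in the RefSeq gene order of GRCm38.p6, among protein-coding genes. Igfbp2 and Igfbp5 are adjacent on chromosome 1, and Igfbp2 fell (log2 change −0.94 ± 0.06 SE) where Igfbp5 had 0.19 ± 0.07 SE and did not pass (limma adjusted p = 0.221). The gene on the other side of Igfbp2, Rpl37a, had 0.04 ± 0.10 SE (limma adjusted p = 0.881). Igfbp3 and Igfbp1 are adjacent on chromosome 11, and Igfbp1, which was dim in both groups, had −0.06 ± 0.09 SE (limma adjusted p = 0.794), while Tns3 on the other side of Igfbp3 had 0.13 ± 0.10 SE (0.589). The neighbours of Irs4 on the X chromosome, Col4a5 and Gucy2f, had −0.11 ± 0.11 SE and −0.03 ± 0.08 SE (limma adjusted p = 0.718 and 0.885), with Gucy2f below the mark of dim genes. Beside Igf1, Pmch was dim and had 0.08 ± 0.06 SE (limma adjusted p = 0.629). No neighbour named here passed apart from Igfbp2 itself, and the differences between neighbours were not tested.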
